A study of Mus musculus with 2 samples.

Results

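Adenylate cyclases make the second messenger cyclic AMP (cAMP) from ATP, and phosphodiesterases break down cAMP, cyclic GMP (cGMP) or both. The 34 genes described here are the protein-coding genes of the GENCODE M21 annotation whose symbol is Adcy followed by a number (10 genes) or Pde followed by a number and a letter from a to h (24 genes). They were chosen by symbol among 22015 nuclear protein-coding genes and 55536 annotated genes. The data are total RNA-seq of left cerebral cortex tissue from B6CASTF1/J males, hybrids of B6 and CAST parents, aged 18 to 20 months. The series holds 1 group of 2 libraries, replicate 2 and replicate 1, with no treatment, no second genotype and no other age. Both carry the same donor identifier and separate biosample identifiers, and the labels do not say whether separate animals were used, so the spread between them may be wholly technical. The series therefore holds no comparison of conditions and no p-value is given. Levels are in deposited TPM, an abundance that is divided by transcript length and scaled to a fixed total, and "±" is the SD of the 2 libraries.

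Hormones and transmitters reach membrane cyclases through receptors coupled to the stimulatory G proteins Gs and Golf, and through inhibitory G proteins. The isoforms differ in the second input they read, which for some is calcium with calmodulin, so that a neuron's activity can drive or hold back cAMP synthesis. cAMP then acts on protein kinase A (PKA), the Epac exchange factors and cyclic-nucleotide-gated channels, and the PDE families end the signal, each with its own preference for cAMP or cGMP and its own regulation by calmodulin, cGMP or phosphorylation. In the forebrain this balance is studied for its part in synaptic plasticity and in dopamine signalling in the striatum, the nucleus under the cortex.

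Expected counts over annotated genes totalled 29897545 for replicate 2 and 22827996 for replicate 1. Markers of cortical cells were present, with excitatory neuron genes (Slc17a7, Camk2a and Neurod6) at a summed 1637 TPM in replicate 2 and 1781 TPM in replicate 1. The libraries differed in 10 markers of striatal projection neurons, which summed to 398 TPM in replicate 2 and 184 TPM in replicate 1. All 10 were higher in replicate 2 by 0.5 or more on the log2 scale, against 1.97% of 14450 protein-coding genes averaging at least 10 counts. None was at 0, and their median log2 ratio was 1.18. The list was chosen with earlier results of these data known. In bulk tissue, fewer cells of a type and less RNA per cell cannot be told apart.

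The DNA just before the first annotated base is shown for the most abundant cyclase gene, Adcy1, and for Adcy5, Pde1b and Pde10a, whose RNA was higher in replicate 2 by 0.5 or more and for which the RefSeq start table (GRCm38.p6) held the window of the leading transcript. All lie on the plus strand of GRCm38: Adcy1 at chr11:7063183-7063482, Adcy5 at chr16:35154614-35154876, Pde1b at chr15:103502784-103503033 and Pde10a at chr17:8801495-8801692. The Pde10a window belongs to the internal start of Pde10a-202, not to the gene's first exon. Pde1c, also higher in replicate 2 by 0.5 or more, lies on the minus strand and is not shown. Capitals mark GC boxes (GGGCGG, or CCGCCC on the other strand), and each window ends before the first base of the GENCODE transcript.
Adcy1: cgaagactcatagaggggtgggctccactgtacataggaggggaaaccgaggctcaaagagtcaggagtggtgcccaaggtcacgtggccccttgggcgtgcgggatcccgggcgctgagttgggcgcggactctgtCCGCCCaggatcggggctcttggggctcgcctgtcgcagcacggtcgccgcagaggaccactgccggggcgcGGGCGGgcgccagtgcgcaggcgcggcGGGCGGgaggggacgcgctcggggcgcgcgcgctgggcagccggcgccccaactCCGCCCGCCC
Adcy5: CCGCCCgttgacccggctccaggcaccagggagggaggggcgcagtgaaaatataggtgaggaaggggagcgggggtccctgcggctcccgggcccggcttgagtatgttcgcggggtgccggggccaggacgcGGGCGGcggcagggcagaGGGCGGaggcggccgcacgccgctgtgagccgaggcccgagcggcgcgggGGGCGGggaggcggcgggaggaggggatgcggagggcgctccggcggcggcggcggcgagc
Pde1b: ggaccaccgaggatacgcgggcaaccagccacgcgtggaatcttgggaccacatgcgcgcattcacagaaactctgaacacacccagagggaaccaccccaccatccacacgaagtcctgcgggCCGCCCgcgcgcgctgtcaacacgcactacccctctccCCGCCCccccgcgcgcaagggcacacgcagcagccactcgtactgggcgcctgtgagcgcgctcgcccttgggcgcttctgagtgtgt
Pde10a: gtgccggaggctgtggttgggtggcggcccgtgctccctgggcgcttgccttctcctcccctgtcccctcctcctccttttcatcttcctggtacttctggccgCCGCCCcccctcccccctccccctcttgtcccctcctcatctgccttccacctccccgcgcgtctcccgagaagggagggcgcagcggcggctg
The windows held 5, 4, 2 and 1 GC boxes in that order, and in Adcy1 a pair of them overlap at -16 and -12 from the first annotated base. Their GC content was 74.0% for Adcy1, 78.7% for Adcy5, 67.2% for Pde1b and 70.7% for Pde10a. Over the 49 RefSeq start windows of the 25 members that had one, the GC box was in 17, against 35.7% of all 32851 windows of the table. The full cAMP response element TGACGTCA was in 0 of the 49, against 1.79% of all windows. Its shorter form TGACG or CGTCA was in 9, against 20.8%, and the TATA box TATAAA or TTTATA was in 3, against 13.6%. Both strands were searched, the longer element contains the shorter one, and windows of neighbouring starts of 1 gene overlap. A match is a run of letters and says nothing of a bound factor.

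Of the 34 genes, 26 were detected at 1 TPM or more in both libraries, 9 of 10 cyclases and 17 of 24 phosphodiesterases, against 58.5% of all nuclear protein-coding genes. The detected members had a median of 25.4 TPM, against 16.2 TPM for all detected protein-coding genes, and 17 of the 26 lay above that value. The plot of levels by gene shows a range from over 100 TPM to the threshold.

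**Figure D1:**
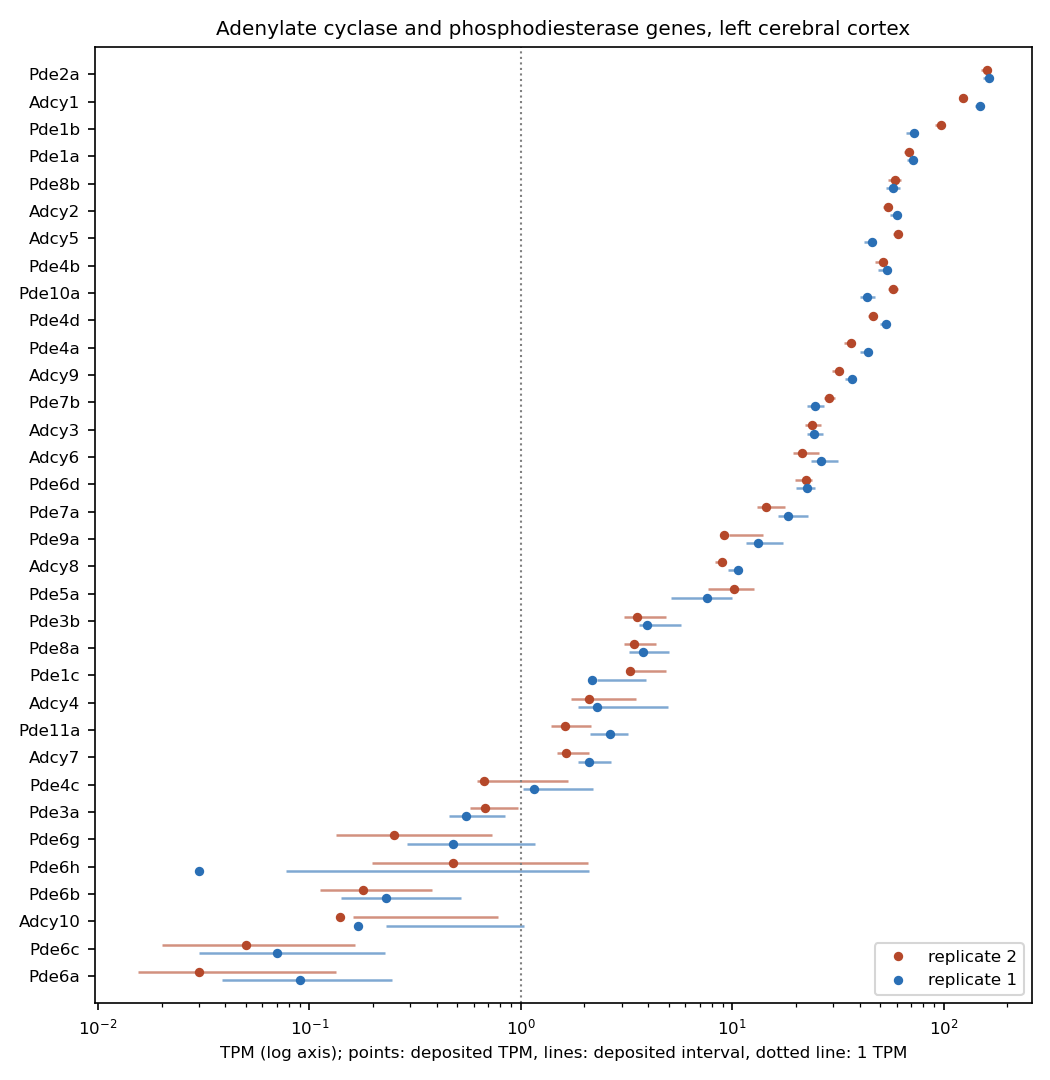
TPM (log axis) of all 34 genes in replicate 2 (red) and replicate 1 (blue), in order of the mean, with the deposited interval as a line and 1 TPM dotted. Pde2a and Adcy1 stand above 100 TPM in both libraries and the PDE6 photoreceptor genes stand below 1 TPM; for 8 genes the point lies outside its own interval in a library, since the interval belongs to a separate deposited estimate.

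Among cyclases, Adcy1 dominated. Adcy1, which calcium and calmodulin stimulate and which is known from synaptic plasticity in cortex and hippocampus (ENSMUSG00000020431.5, chr11:7063489-7178506, plus strand), had 123 TPM in replicate 2 and 148 TPM in replicate 1. It held 39.4 ± 2.91% of all cyclase TPM (n = 2). Adcy3, the olfactory cyclase that also marks neuronal primary cilia, had 23.9 TPM in replicate 2 and 24.4 TPM in replicate 1. Adcy8, the other cyclase with strong calmodulin stimulation, had 8.98 TPM in replicate 2 and 10.6 TPM in replicate 1. These 3 calcium-stimulated isoforms together made up 49.4 ± 2.78% of cyclase TPM, most of it Adcy1. The 921 exonic bases that Adcy3 shares with Cenpo on the opposite strand make its count uncertain, the use of strand in counting being not given in the sources used here. Cenpo itself had 80 counts in replicate 2 and 66 in replicate 1.

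The cyclases that G protein beta-gamma subunits stimulate were led by Adcy2, with 54.6 TPM in replicate 2 and 60.3 TPM in replicate 1. Adcy4 stood at 2.09 TPM in replicate 2 and 2.28 TPM in replicate 1, and Adcy7 at 1.64 TPM in replicate 2 and 2.09 TPM in replicate 1. Adcy2 thus carried nearly all of the 17.9 ± 0.25% of cyclase TPM in this class. The calcium-inhibited class had Adcy5, the main cyclase of striatal projection neurons (chr16:35154877-35305738, plus strand), at 61.0 TPM in replicate 2 and 45.7 TPM in replicate 1. Its other member, Adcy6, had 21.4 TPM in replicate 2 and 26.2 TPM in replicate 1. The class held 22.6 ± 3.51% of cyclase TPM, and its members differed between the libraries in opposite directions. Adcy9, which forskolin stimulates poorly, had 31.8 TPM in replicate 2 and 37.0 TPM in replicate 1. Adcy10, the soluble cyclase that bicarbonate activates, was the only cyclase not detected, with 0.14 TPM in replicate 2 and 0.17 TPM in replicate 1 from 4 counts in each.

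The phosphodiesterases with dual specificity were led by Pde2a, which cGMP activates and which thereby links cGMP to cAMP breakdown (ENSMUSG00000110195.1, chr7:101421691-101512827, plus strand). Pde2a had 159 TPM in replicate 2 and 164 TPM in replicate 1, and it held 25.1 ± 0.93% of catalytic PDE TPM (n = 2). The annotation places a protein-coding gene, Gm45837, on the same strand over 1364 of its exonic bases, and Gm45837 was listed at 0 counts in both libraries, so the division of reads there is uncertain. Pde10a, an enzyme of striatal projection neurons that has served as a drug target there (chr17:8525372-8986648, plus strand), had 57.5 TPM in replicate 2 and 43.2 TPM in replicate 1. Pde3b, which cGMP inhibits, had 3.56 TPM in replicate 2 and 3.94 TPM in replicate 1. Pde11a had 1.62 TPM in replicate 2 and 2.63 TPM in replicate 1. Pde3a, the other cGMP-inhibited enzyme, was under the threshold at 0.68 TPM in replicate 2 and 0.55 TPM in replicate 1.

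The calmodulin-activated PDE1 family, which couples calcium to the breakdown of both messengers, held 24.5 ± 2.18% of catalytic PDE TPM. Pde1b (chr15:103503034-103530052, plus strand) had 97.5 TPM in replicate 2 and 72.5 TPM in replicate 1. Pde1a had 68.8 TPM in replicate 2 and 71.5 TPM in replicate 1. Pde1c (chr6:56069804-56569103, minus strand) was low, with 3.30 TPM in replicate 2 and 2.18 TPM in replicate 1. Pde1b and Pde1a therefore carried the family.

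The 8 cAMP-specific genes held 38.5 ± 2.33% of catalytic PDE TPM, spread over several genes. Pde8b, a high-affinity enzyme that resists many PDE inhibitors, led them with 59.0 TPM in replicate 2 and 57.4 TPM in replicate 1. The PDE4 enzymes, the targets of rolipram and main cAMP hydrolases in many cells, followed. Pde4b had 51.4 TPM in replicate 2 and 53.9 TPM in replicate 1, Pde4d had 46.1 TPM in replicate 2 and 53.2 TPM in replicate 1, and Pde4a had 36.5 TPM in replicate 2 and 43.7 TPM in replicate 1. The last PDE4 gene, Pde4c, fell under the threshold, with 0.67 TPM in replicate 2 and 1.16 TPM in replicate 1. Pde7b had 28.8 TPM in replicate 2 and 24.6 TPM in replicate 1, and Pde7a had 14.4 TPM in replicate 2 and 18.4 TPM in replicate 1. Pde8a had 3.42 TPM in replicate 2 and 3.77 TPM in replicate 1.

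Genes specific for cGMP were scarce and held 3.16 ± 0.22% of catalytic PDE TPM. Pde9a, which has the highest known affinity for cGMP in the superfamily, had 9.12 TPM in replicate 2 and 13.2 TPM in replicate 1. Pde5a, the target of sildenafil, had 10.2 TPM in replicate 2 and 7.59 TPM in replicate 1. Pde5a-203, a non-coding processed transcript of 418 bases, took 66.6% of the gene's TPM from 45.0 counts in replicate 2 and 49.6% from 17.9 counts in replicate 1. Coding transcripts of Pde5a held 33.4% of the TPM in replicate 2 and 48.9% in replicate 1. These shares are uncertain, since the second quantification gave Pde5a-203 36.2% in replicate 2 and 62.2% in replicate 1.

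The PDE6 genes belong to the rod and cone enzyme of the retina, apart from Pde6d, whose product carries prenylated proteins between membranes. Pde6d had 22.2 TPM in replicate 2 and 22.7 TPM in replicate 1. The catalytic genes Pde6a, Pde6b and Pde6c and the inhibitory subunits Pde6g and Pde6h ranged from 0.03 to 0.48 TPM in both libraries, with 3 to 11 counts each. Pde6a is uncertain because the second deposited quantification listed it at 2.83 TPM in replicate 2 and 2.69 TPM in replicate 1. Pde6g and Pde6h are uncertain too. The second quantification put Pde6g at 0.91 TPM in replicate 2 and 1.66 TPM in replicate 1. It gave Pde6h 27.1 counts in replicate 2 and 35.8 in replicate 1.

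Summed over genes, the cyclases reached 328 TPM in replicate 2 and 357 TPM in replicate 1, and the 21 catalytic phosphodiesterases reached 652 TPM in replicate 2 and 638 TPM in replicate 1. The PDE sum was 1.99 times the cyclase sum in replicate 2 and 1.79 times in replicate 1 (1.89 ± 0.14, n = 2). In the second quantification, where protein-coding genes take a larger part of the TPM, the ratio was 2.12 in replicate 2 and 1.91 in replicate 1. Taken over counts that are not divided by length, it was 0.883 in replicate 2 and 0.743 in replicate 1, and the long Adcy1 messenger of 12259 bases alone held 30860 and 26722 counts there.

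Not every step in the order of levels was larger than the deposited uncertainty. Of 25 neighbouring pairs among the 26 detected genes, the deposited TPM intervals overlapped in at least 1 library for 15 and in both for 9. In 6 pairs they were apart, in the same direction, in both libraries. These were Pde2a over Adcy1, Adcy1 over Pde1b, Pde1a over Pde8b, Pde4d over Pde4a, Pde4a over Adcy9 and Pde9a over Adcy8. The last is uncertain, since in replicate 2 Pde9a had 9.12 TPM and Adcy8 8.98 TPM. There the Pde9a value lay below its own interval of 9.62 to 13.9 TPM. Pde8b, Adcy2, Adcy5, Pde4b, Pde10a and Pde4d followed each other with means of 58.2 to 49.7 TPM, and no neighbouring pair among them was apart in 1 direction in both libraries. With TPM rescaled to the protein-coding total, Pde2a had 359 in replicate 2 and 353 in replicate 1 by the first quantification, against 303 in both by the second. Pde10a had 130 in replicate 2 and 92.8 in replicate 1 by the first, against 150 in replicate 2 and 96.3 in replicate 1 by the second, so it was higher in replicate 2 by both.

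**Figure D2:**
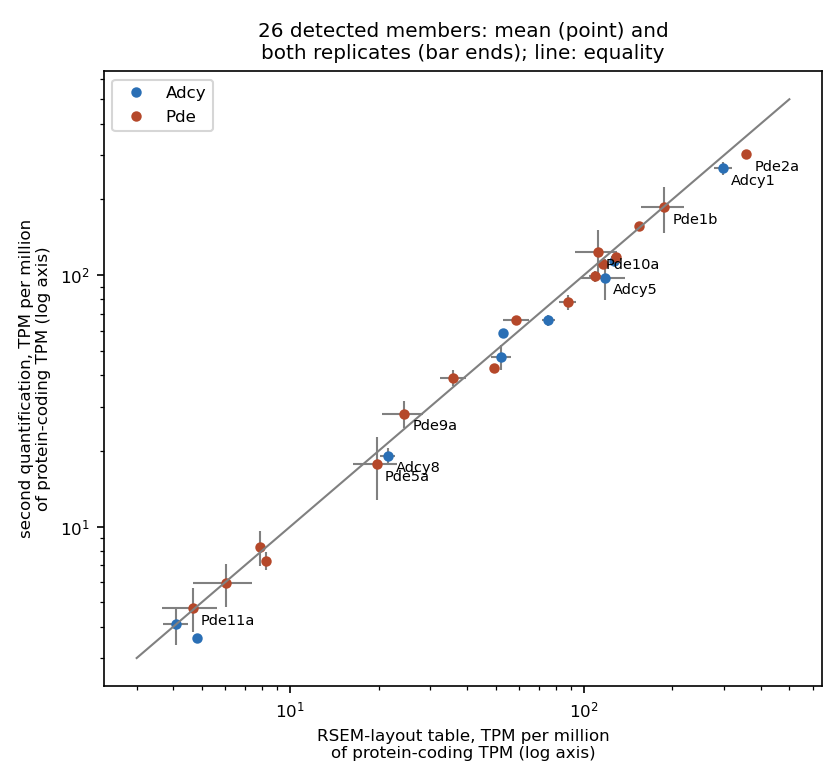
Level of the 26 detected genes in the first (x) and second (y) deposited quantification, as TPM rescaled to the total of protein-coding genes on log axes, with the mean as a point and both replicates as bar ends. Adenylate cyclases are blue and phosphodiesterases red, and all points lie near the diagonal, which marks equal values.

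Leading transcripts were assessed for the 19 genes with 5 TPM or more and at least 2 annotated transcripts. The same transcript led in both libraries for 16 of them, against 89.5% of all such protein-coding genes, and 1 transcript led in both libraries and both quantifications for 12, against 67.8%. Adcy1-201, with 20 exons, held 99.8% of Adcy1 TPM in replicate 2 and 99.7% in replicate 1, and Adcy5-201 held 98.9% in replicate 2 and 95.9% in replicate 1. Adcy1 and Adcy5 were thus nearly single-isoform genes here. The leading transcript of Pde2a depended on the quantification. In the first, Pde2a-201 led with 30.7% in replicate 2 and 29.5% in replicate 1, and in the second Pde2a-204 led with 44.3% in replicate 2 and 37.8% in replicate 1. A Pde2a transcript annotated for nonsense-mediated decay, Pde2a-209, took 27.1% in replicate 2 and 25.4% in replicate 1 by the first and 3.70% in replicate 2 and 0.796% in replicate 1 by the second, so its share is uncertain. For Adcy9 the first quantification gave 0 counts to Adcy9-201, which led in the second, and Adcy9-201 and Adcy9-202 encode open reading frames of the same 1353 codons.

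PDE4 genes make long forms, which carry a pair of conserved upstream regions that PKA and ERK act through, and short forms that lack the first of them. The leading form differed by gene. For Pde4a the 15-exon transcript Pde4a-202, with 844 codons, held 56.7% in replicate 2 and 56.1% in replicate 1, and the 10-exon Pde4a-201, with 610 codons, held 39.9% in replicate 2 and 37.4% in replicate 1. For Pde4b the 15-exon Pde4b-207, with 721 codons, held 45.7% in replicate 2 and 45.8% in replicate 1, and the 10-exon Pde4b-202, with 503 codons, held 21.1% in replicate 2 and 16.6% in replicate 1. Pde4d was led by a 10-exon transcript instead, Pde4d-207 with 584 codons, at 45.2% in replicate 2 and 39.9% in replicate 1. All 3 leads were the same in the second quantification. Which protein form each transcript makes was not read from sequence here.

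Set against each other, the libraries differed in part of the set, as the plot of ratios by gene shows. A ratio is the log2 of replicate 2 over replicate 1 in expected counts after TMM scaling, and its 95% interval covers counting error only. Of the 29 members whose counts averaged at least 10, 8 were higher in replicate 2 beyond counting error, against 20.2% of 14450 tested genes, and 6 were lower, against 14.8%. Higher by 0.5 or more were Pde10a, Adcy5, Pde1c and Pde1b, which is 4 of 29 against 1.97% of all tested genes. Lower by 0.5 or more was Pde4c alone, against 2.49%. The median ratio of the 29 was 0.003, against 0.03 over all tested genes.

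**Figure D3:**
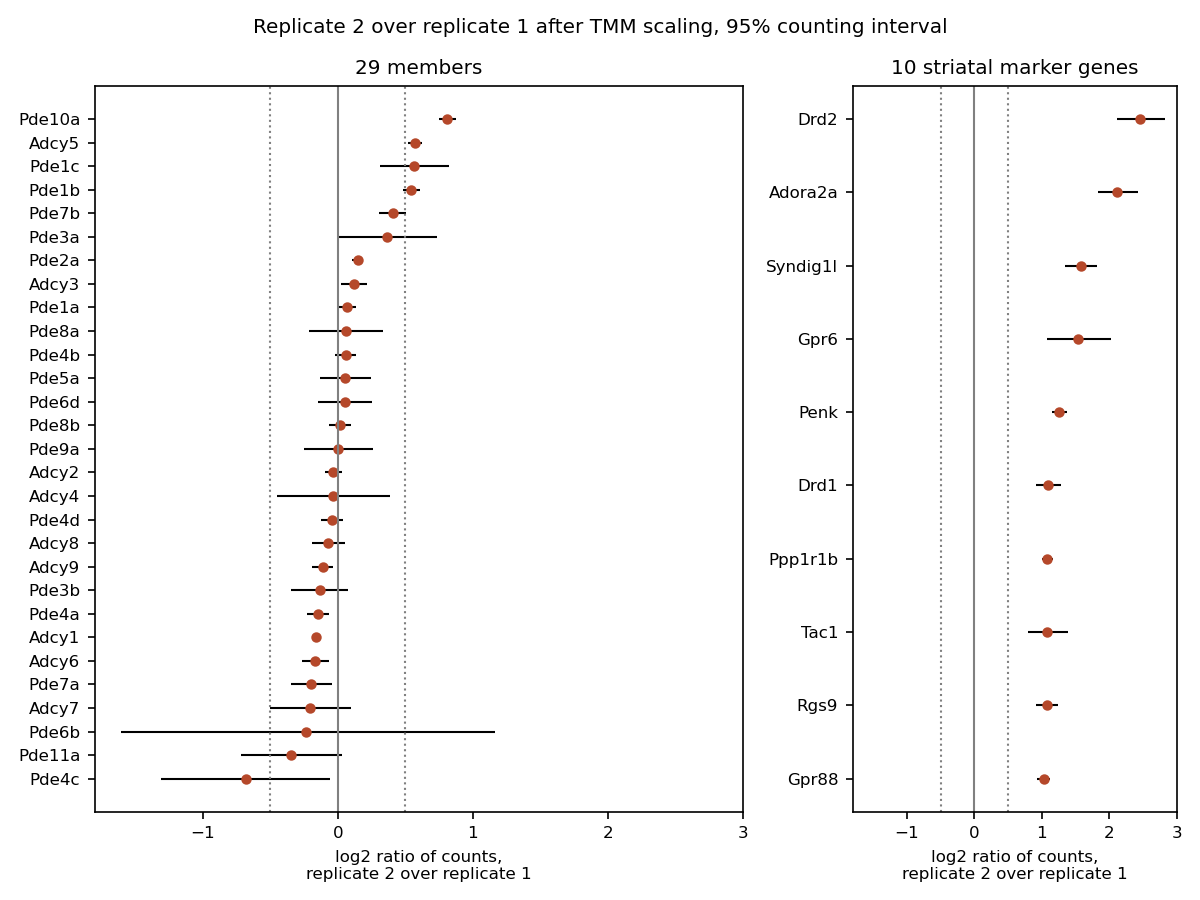
Log2 ratio of expected counts, replicate 2 over replicate 1, after TMM scaling, for the 29 tested members (left) and 10 striatal marker genes (right). Points are ratios, lines are 95% counting intervals and dotted lines mark 0.5 in either direction; Pde10a, Adcy5, Pde1c and Pde1b lie right of 0.5 and every striatal marker lies farther right than Pde10a.

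Pde10a had 6779 counts in replicate 2, against 2996 in replicate 1, a ratio of 0.81 (0.75 to 0.87), or 1.75-fold. Adcy5 had 8633 counts in replicate 2, against 4503 in replicate 1, a ratio of 0.57 (0.52 to 0.62). Pde1b had 5655 counts in replicate 2, against 3004 in replicate 1, a ratio of 0.54 (0.48 to 0.61). These 3 genes were 1.46- to 1.75-fold higher in replicate 2. Pde1c, with 375 counts in replicate 2 and 196 in replicate 1, had a ratio of 0.57 with a wider interval of 0.32 to 0.83. Pde4c had 41 counts in replicate 2, against 51 in replicate 1, a ratio of -0.68 (-1.31 to -0.06), from a gene below 1 TPM in replicate 2. In deposited TPM the Pde10a ratio was 0.41, smaller than in counts.

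Beside these, Pde7b stood at 0.41 (0.31 to 0.51), with 2162 counts in replicate 2 and 1264 in replicate 1. Pde10a, Adcy5, Pde1b and Pde7b are all known to be abundant in striatal projection neurons. Of the striatal markers, Drd2, the dopamine receptor of the indirect pathway, had 10.7 TPM in replicate 2 and 2.09 TPM in replicate 1, a ratio of 2.46, and Ppp1r1b, which encodes the PKA substrate DARPP-32, had 134 TPM in replicate 2 and 66.1 TPM in replicate 1, a ratio of 1.08. Excitatory neuron genes had a median ratio of 0.03. Inhibitory neuron markers were higher in 3 of 3 cases, with a median of 0.20, and microglia markers in 3 of 4, with a median of 0.17. These compare with 20.2% of all tested genes, and with spike-in scaling they were 2 of 3 and 1 of 4. Medians were 0.15 for oligodendrocyte, 0.19 for endothelial and -0.14 for oligodendrocyte precursor markers. They were 0.02 for pan-neuronal, 0.01 for astrocyte, -0.01 for mural and -0.02 for thalamus markers. All 10 striatal ratios were larger than that of Pde10a, and the part of striatal RNA in the ratios of the 4 genes was not tested.

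The remaining differences were small. Pde2a (0.15, 0.11 to 0.19), Adcy3 (0.12, 0.03 to 0.21) and Pde1a (0.07, 0.01 to 0.13) were higher in replicate 2 in scaled counts, but all 3 ratios were below 0 in deposited TPM, whose median over all tested genes was -0.09, and Pde1a was also below 0 with spike-in scaling. Lower in replicate 2 were Adcy1 (-0.16, -0.18 to -0.14), Adcy6 (-0.17, -0.27 to -0.06), Adcy9 (-0.11, -0.19 to -0.03), Pde4a (-0.15, -0.23 to -0.07) and Pde7a (-0.20, -0.35 to -0.04). These 5 kept a negative ratio under each scaling tried and in deposited TPM, though the interval of Adcy9 reached 0 in the second quantification. Among the 9 tested cyclases 2 were higher and 3 lower, and among the 20 tested PDE genes 6 were higher and 3 lower. The other 15 members had intervals that included 0, among them Adcy2 (-0.03, -0.10 to 0.03), Pde8b (0.01, -0.07 to 0.09), Pde4b (0.06, -0.02 to 0.14) and Pde4d (-0.04, -0.12 to 0.04). Pde6g, Pde6h, Pde6c, Pde6a and Adcy10 had too few counts to be tested.

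Most of the added Pde10a counts of replicate 2 lay at 1 internal start. Pde10a-202, the coding transcript that begins at chr17:8801693-8801779, the start shown above, had 5547 counts in replicate 2, against 2069 in replicate 1, a ratio of 1.05 (0.98 to 1.13). From the 5′ most start at chr17:8525372-8525450, the coding Pde10a-204 had 296 counts in replicate 2, against 145 in replicate 1, a ratio of 0.66 (0.37 to 0.96). The coding Pde10a-208 from chr17:8526801-8527026 stood at 0.41 (0.18 to 0.64). All 3 were higher in replicate 2, and among these 3 Pde10a-202 by most, with an interval that does not overlap the others. The second quantification gave 1.07 for Pde10a-202, 0.44 for Pde10a-204 and 0.35 for Pde10a-208. Coding transcripts with fewer counts had larger ratios. Pde10a-213 had 32.6 counts in replicate 2 and 0 in replicate 1. Pde10a-209 stood at 3.92 (2.29 to 7.31) in the second quantification, with 18.9% of TPM in replicate 2 and 2.00% in replicate 1. The first gave it 3.38 counts in replicate 2 and 0 in replicate 1. The retained-intron transcript Pde10a-207, which shares the 5′ most start, stood at -0.72 (-0.98 to -0.46) instead. The coding Pde10a-206, which begins farther downstream, is uncertain, since it stood at -1.19 (-1.76 to -0.66) in the first quantification, while the second listed 25.5 counts in replicate 2 and 0 in replicate 1. Pde10a-202, which encodes 796 codons, held 60.7% of the gene's TPM in replicate 2 and 42.0% in replicate 1 by the first quantification. The size of this shift is uncertain. All transcripts from its start held 64.1% in replicate 2 and 48.4% in replicate 1 by the first. By the second they held 47.6% in replicate 2 and 42.7% in replicate 1.

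**Figure D4:**
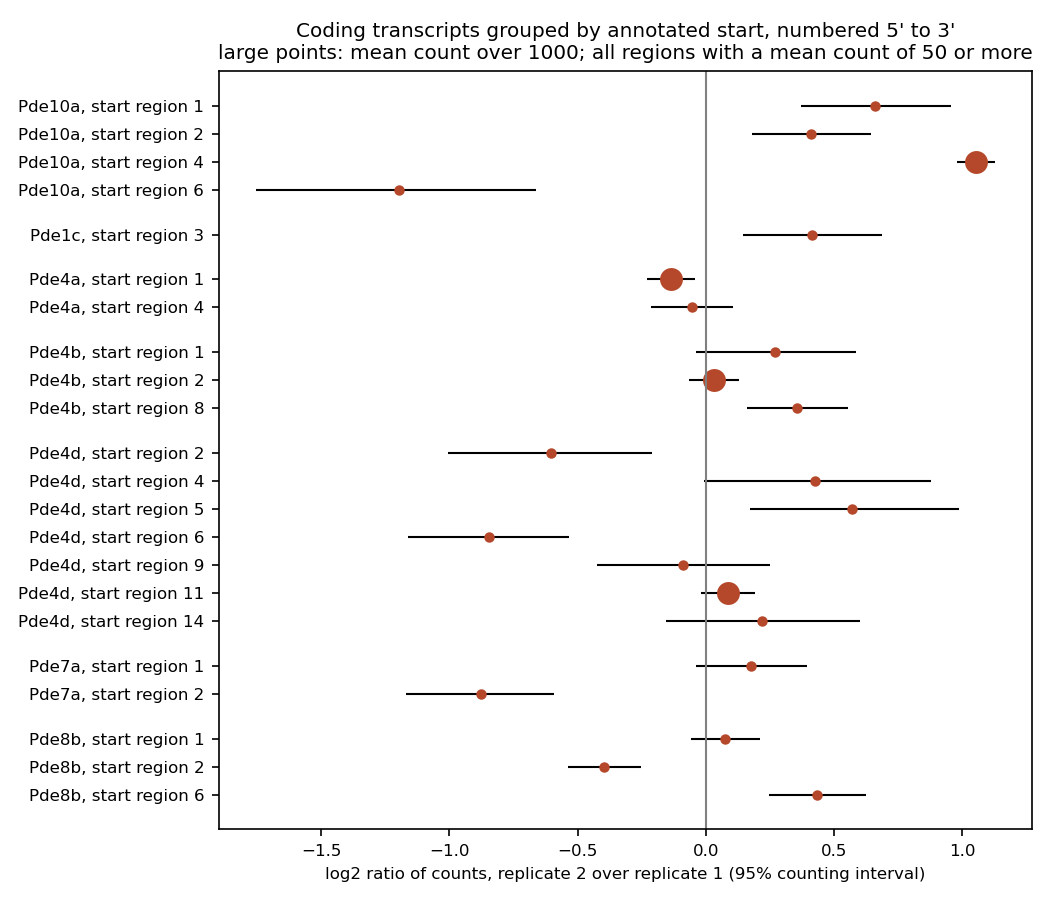
Log2 ratio of counts, replicate 2 over replicate 1, for protein-coding transcripts grouped by annotated start. Only Pde10a, Pde1c, Pde4a, Pde4b, Pde4d, Pde7a and Pde8b are drawn, each with every start of 50 or more coding counts on average. Starts of the other members are not drawn. Starts of each gene are numbered 5′ to 3′, and lines are 95% counting intervals. Start 4 of Pde10a, the internal start, stands at 1.05, above its first start at 0.66 and its second at 0.41.

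Coding transcripts from other starts were compared in the same way, and those named here are not all of them. Pde1c had 29.7 counts in replicate 2 and 3.41 in replicate 1 at its 5′ most start, a ratio of 2.76 (1.27 to 5.31), while its main start stood at 0.41 (0.14 to 0.69). The start of Pde4b-202 at chr4:102589723-102589843 had 564 counts in replicate 2, against 341 in replicate 1, a ratio of 0.36 (0.16 to 0.56). The start of Pde4b-207 at chr4:102254742-102255230 stood at 0.03 (-0.06 to 0.13). The 5′ most start of Pde4b stood at 0.27 (-0.04 to 0.59). In the second quantification it stood at 0.59 (0.35 to 0.83), above the start of Pde4b-202 at 0.30 (0.12 to 0.48). The start of Pde4b-203 went the other way, at -1.38 (-2.05 to -0.76). For Pde7a, the start at chr3:19264965-19265008 stood at -0.88 (-1.17 to -0.59) and that at chr3:19310903-19311322 at 0.18 (-0.04 to 0.40). The main Pde4d start at chr13:109903102-109903106 stood at 0.09 (-0.02 to 0.19). Pde4d starts farther upstream are uncertain, since for Pde4d-205 the first quantification gave 147 counts in replicate 2 and 205 in replicate 1 and the second gave 0 in both.

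Transcripts annotated as retaining an intron were lower in replicate 2 in many of the genes. Of 16 members with 10 or more such counts on average, 9 were lower in replicate 2 beyond counting error, against 53.3% of 6158 protein-coding genes, and 0 were higher, against 3.36%. Their median ratio was -0.64, against -0.57 over all those genes, while the coding transcripts of the same 16 members had a median of 0.06, as they did over all those genes. In 13 of the 16 the retained-intron ratio was below the coding ratio, against 85.1% of all those genes. The widest gap was in Pde10a, where retained-intron transcripts had 246 counts in replicate 2, against 317 in replicate 1, a ratio of -0.73 (-0.98 to -0.49), and coding transcripts stood at 0.95 (0.89 to 1.02). They took 10.8% of Pde10a TPM in replicate 2 and 26.6% in replicate 1. In Pde7a they made up 57.6% of the gene's TPM in replicate 2 and 52.0% in replicate 1, more than its coding transcripts. What part this difference between the libraries has in the members' TPM was not tested.

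**Figure D5:**
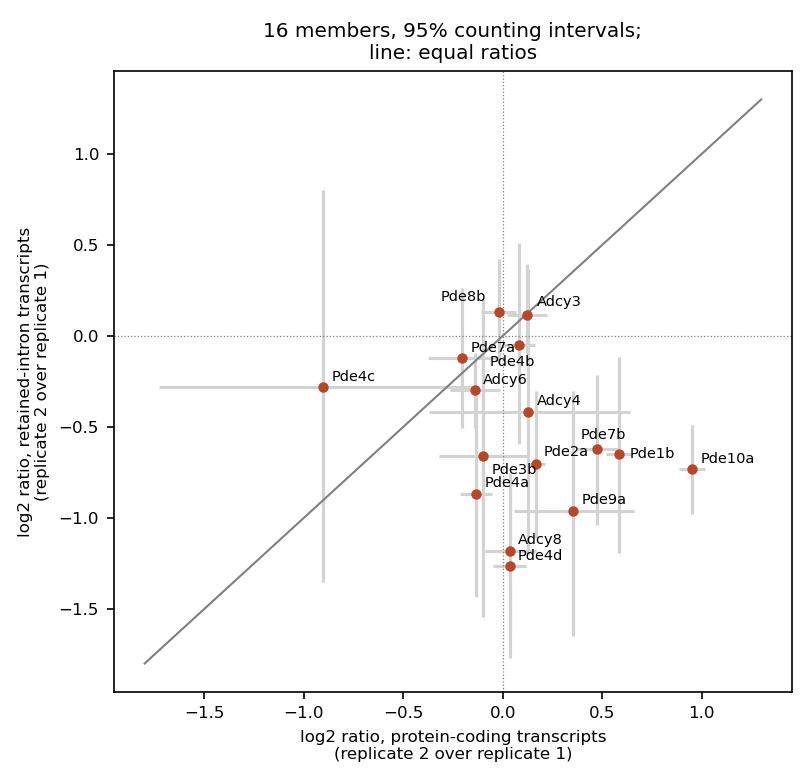
Log2 ratio of retained-intron transcripts (y) against that of protein-coding transcripts (x), replicate 2 over replicate 1, for 16 members with 95% counting intervals and the line of equal ratios. Of the 16 points 13 lie below the line, and Pde10a lies farthest from it, with a coding ratio of 0.95 and a retained-intron ratio of -0.73.

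The genes that act before and after these enzymes were mostly detected. Of the stimulatory G protein alpha subunits, Gnas had 794 TPM in replicate 2 and 795 TPM in replicate 1, and Gnal, which encodes the Golf subunit of striatal and olfactory neurons, had 83.1 TPM in replicate 2 and 64.0 TPM in replicate 1. Both were higher in replicate 2 in scaled counts, at 0.11 (0.08 to 0.14) for Gnas and 0.46 (0.40 to 0.52) for Gnal, and with spike-in scaling 1 of the 2 was. All 6 PKA subunit genes were detected, led by the regulatory subunits Prkar1b, with 328 TPM in replicate 2 and 329 TPM in replicate 1, and Prkar1a, with 283 TPM in replicate 2 and 271 TPM in replicate 1. Of these 6, 5 were higher in replicate 2 beyond counting error and 0 lower, with a median ratio of 0.20, and 3 were higher with spike-in scaling, beside 20.2% higher and 14.8% lower over all tested genes. No gene of these lists passed 0.5.

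Other cAMP effectors had mixed directions. The Epac gene Rapgef4 had 198 TPM in replicate 2 and 218 TPM in replicate 1, and its paralogue Rapgef3 had 19.2 TPM in replicate 2 and 24.3 TPM in replicate 1. The 3 Popeye genes Bves, Popdc2 and Popdc3, which encode cAMP-binding membrane proteins, were below 1 TPM. Of the 5 genes of this list 1 was higher and 1 lower, and with spike-in scaling 0 were higher and 1 was lower. Among A-kinase anchoring proteins, which hold PKA and PDE enzymes at membranes and organelles, 11 of 13 were detected, 3 were higher and 4 lower of 11 tested, and Akap11 led with 79.9 TPM in replicate 2 and 80.4 TPM in replicate 1, ahead of Akap6 with 68.6 TPM in replicate 2 and 76.1 TPM in replicate 1. These counts shifted with the scaling, to 0 higher and 5 lower with spike-ins and 5 higher and 3 lower in the second quantification, beside a background of 20.2% higher and 14.8% lower. The PKA inhibitor genes were led by Pkia, with 72.5 TPM in replicate 2 and 71.1 TPM in replicate 1. Pkig followed, with 56.9 TPM in replicate 2 and 54.2 TPM in replicate 1. Of the 3 inhibitor genes 1 was higher and 0 lower. With spike-in scaling 0 were higher and 0 lower, and in the second quantification 2 were higher and 1 lower. Of the 6 CREB and CRTC genes, which carry the cAMP signal to transcription, 0 were higher and 2 lower, and the highest were Crtc1, with 66.4 TPM in replicate 2 and 73.6 TPM in replicate 1, and Creb1, with 23.8 TPM in replicate 2 and 29.2 TPM in replicate 1. The number lower was 4 with spike-in scaling and 0 in the second quantification, against 14.8% of all tested genes.

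On the cGMP side, 6 of 11 guanylate cyclase genes were detected, led by the nitric oxide receptor subunits Gucy1b1, with 72.8 TPM in replicate 2 and 69.0 TPM in replicate 1, and Gucy1a1, with 36.3 TPM in replicate 2 and 36.9 TPM in replicate 1. Of 8 tested, 2 were higher and 2 lower, beside 20.2% higher and 14.8% lower over all tested genes. With spike-in scaling 0 of the 8 were higher and 2 lower. Of 5 genes for nitric oxide synthases and cGMP-dependent kinases, 4 were detected, with the neuronal synthase Nos1 at 15.3 TPM in replicate 2 and 16.3 TPM in replicate 1 and the kinase Prkg1 at 7.51 TPM in replicate 2 and 8.85 TPM in replicate 1, and 1 of 4 tested was higher. Of the 4 tested synthase and kinase genes, 0 were higher and 1 was lower with spike-in scaling. No tested gene of either list passed 0.5 in either direction.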

How the data were processed

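Total RNA from 2 libraries of 1 group was measured. Gene and transcript expected counts, TPM, the percent of a gene's TPM in each transcript and the bounds of a TPM interval were deposited in the RSEM layout, per the file headers, from an alignment to mm10 (GRCm38) transcripts of GENCODE M21, per the deposited file lists. A second transcript table with estimated counts and TPM has the kallisto layout, per the file headers. The deposited interval bounds belong to a separate posterior mean estimate, a score used as given. The aligner, versions, strand use and interval level were not given in the sources used here. Reads were assigned to the reference genome, so CAST alleles may be undercounted.

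Expected counts were rounded. Scaling used TMM factors (edgeR 4.0.16, R 4.3.3), 0.992 for replicate 2 and 1.01 for replicate 1, over genes averaging at least 10 counts. The log2 ratio added 0.5 to each count, and its exact Clopper-Pearson 95% interval covers counting error alone, as these are counts of reads and not of independent molecules. A gene was called where that interval excluded 0. Calculations were tested on simulated data. First annotated bases within 1000 bases of each other formed 1 start. Alternatives were DESeq2 1.42.0 size factors, spike-in scaling, no count filter, the second table, other TPM thresholds and each library alone. Spike-in scaling used the summed counts of all 97 spike-ins, of which 41 averaged at least 10 counts. All members are named, and of each pathway list the genes past 0.5 and the top 2 by level. Members and lists were chosen with earlier results of these data known.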

Additional observations from a re-analysis of the deposited data

How the results depend on the processing

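No paired analysis was possible because the series has 1 group of 2 libraries. Of the 29 member ratios, DESeq2 size factors changed no call, and with no count filter 10 members were higher instead of 8, as in the second quantification. Spike-in scaling, whose log2 size ratio of 0.47 compares with 0.37 for TMM, gave 6 higher and 13 lower, instead of 6 lower, and turned the sign of 7 members, Pde1a (-0.031) and 6 whose TMM interval included 0, Pde8b (-0.089), Pde4b (-0.045), Pde5a (-0.047), Pde6d (-0.049), Pde8a (-0.044) and Pde9a (-0.098). In deposited TPM the sign turned for 7, of which Pde1a (-0.056), Pde2a (-0.044) and Adcy3 (-0.033) were called with TMM and Pde4b (-0.069), Pde6d (-0.028), Pde8a (-0.137) and Pde9a (-0.524) were not. In the second quantification it turned for 2 uncalled members, Adcy2 (0.011) and Pde4d (0.0038). The calls lost were Pde1a (above) and Adcy3 with spike-in scaling (0.02) and Adcy9 in the second quantification (-0.06). The second quantification put the cyclase sum at 509 TPM and the PDE sum at 1024 TPM, and undivided counts put the PDE to cyclase ratio at 0.813. Neighbours with intervals overlapping in both libraries were 9, not 15. With either library alone, detected members were 26 to 27, the cyclase sum 328 to 357 TPM, the PDE sum 638 to 652 TPM, the ratio 1.79 to 1.99 and overlapping neighbours 14 to 17. Detected members were 28 at 0.5 TPM and 24 at 2 TPM. Scaling alternatives for pathway and striatal lists were chosen after seeing the data. All 10 striatal markers were higher under each of them, and the PKA subunits called higher ranged from 3 to 6. Ratios of genes under about 50 counts, such as Pde4c, are limited by depth.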
